A study of Homo sapiens with 16 samples.

Results

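CD38 and BST1 are the human genes for the ADP-ribosyl cyclases, and both were followed across 2 acute myeloid leukaemia cell lines treated with all-trans retinoic acid (ATRA), Corin or both. The members were the rows of the authors' gene count table with the symbol CD38 (ENSG00000004468) or BST1 (ENSG00000109743), which are 2 of its 60603 genes. RNA-seq libraries had been made from total RNA of SKNO-1, a line with the RUNX1-RUNX1T1 fusion, and of U-937, a monocyte-like line. Each line had been kept for 24 h in the solvent DMSO, in ATRA, in Corin or in ATRA plus Corin, with each agent at 0.1 µM, and each of the 8 groups had 2 libraries. All 8 SKNO-1 libraries, DMSO included, came from medium with GM-CSF added at 10 ng/mL, so cell line and medium cannot be told apart in any comparison between the lines. Each line stands for 1 leukaemia. The labels number the replicates but do not call them separate cultures, so the p-values below measure only the spread between these libraries, which may be technical.

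CD38 and BST1 (also called CD157) are neighbouring paralogs whose products act mostly on the outside of the cell. Both cleave NAD, giving cyclic ADP-ribose and ADP-ribose, which act on intracellular calcium channels; CD38 spans the membrane and is the stronger NAD hydrolase, whereas BST1 hangs on a lipid anchor and is known from myeloid cells and bone marrow stroma. ATRA is the ligand of the retinoic acid receptors, which bind DNA as dimers with RXR at direct repeats of a hexamer. CD38 is a long-known retinoic acid target of myeloid cells, for which a response element in the first intron has been described. Corin inhibits both the demethylase LSD1 and the deacetylases HDAC1 and HDAC2 of the CoREST corepressor complex.

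Both genes lie on the plus strand of chromosome 4. In GENCODE release 44 on GRCh38 (hg38), BST1 runs from 15703065 to 15738313 and CD38 from 15778275 to 15853232, with a gap of 39961 bases between them. The main CD38 transcript has 8 exons and 5620 bases, and that of BST1 has 9 exons and 1979 bases. CD38 overlaps no other annotated gene. BST1 overlaps a long noncoding RNA on its own strand that has no row in the count table, and a processed pseudogene on the other strand that had 0 to 16 counts per library.

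Because ATRA acts through such repeats, both genes were searched on both strands for them. The motif was a direct repeat of 2 hexamers, each spelled AGGTCA, or AGTTCA, or GGGTCA, or else GGTTCA, with a spacer of 5 bases (a DR5) and at most 1 mismatch in all. CD38 held 1 match and BST1 held 4, none of them without a mismatch. The CD38 match lies in intron 1 on the minus strand at chr4:15779084-15779100, starting 756 bases after the start of the main transcript, and is shown with 20 bases on each side. The BST1 matches lie in exon 2 (minus strand, chr4:15705596-15705612), in intron 8 (minus strand, chr4:15725925-15725941), and at a pair of places beyond the end of the main transcript (minus strand, chr4:15736695-15736711, and plus strand, chr4:15738128-15738144). All sequences are from the hg38 reference, 5′ to 3′ on the strand of the match, with the hexamers in capitals.
CD38 intron 1: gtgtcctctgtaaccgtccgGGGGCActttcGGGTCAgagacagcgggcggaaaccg
BST1 exon 2: AGTTAAtaaaaAGGTCA
BST1 intron 8: ACTTCAcaagtAGGTCA
BST1 beyond the main transcript, minus strand: GGTTCAtggagAGTGCA
BST1 beyond the main transcript, plus strand: GTTTCAatgtcGGTTCA

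Matches of this kind are common over such lengths. Of 2518 windows of chromosome 4 as long as CD38, 95.1% held at least 1, and of 5368 windows as long as BST1, 77.1% did. At promoter length they were rarer: 1.59% of 35116 RefSeq promoters (250 bases before to 50 after the start, GRCh38) held at least 1, and the CD38 promoter held 0. BST1 had no promoter in that set, so none was searched for it. A match is a description of the letters, and binding of a receptor was not measured.

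The authors' estimated counts summed to 28.4 to 37.8 M per library. Levels are in CPM, counts scaled to a common library total corrected by TMM factors fitted within each line. Each mean ± SD covers the 2 libraries of a group. The line markers followed the labels: RUNX1T1 was high only in SKNO-1, HOXA9 and HOXA10 only in U-937, and SPI1, CD33, PTPRC and LYZ were present in both, but the myeloid marker MPO was near 0 in U-937. Of the ATRA target genes used as a check of the treatment, all 4 of 4 tested rose with ATRA in SKNO-1 and 3 of 3 in U-937. The SKNO-1 DMSO libraries lay farther apart than any other pair, with an SD of 0.354 for the log2 difference over well-expressed genes against 0.106 to 0.194 elsewhere, and the effect of leaving out either is given where it matters. In bulk RNA, fewer expressing cells and less RNA per cell cannot be told apart.

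In SKNO-1, CD38 was already abundant in DMSO and rose with each agent alone, but the combination left it far below ATRA alone. CD38 read 216 and 242 CPM in the DMSO libraries of SKNO-1, 562 and 543 with ATRA, 386 and 379.6 with Corin, and 296 and 291 with both agents. The 4 groups did not overlap, and their order was ATRA, Corin, both agents, DMSO. The share of all genes whose groups separate in this way was not counted. ATRA raised CD38 2.41-fold (95% interval 2.17 to 2.68), from 229 ± 18.8 to 553 ± 13.3 CPM (SD, n = 2), with a log2 fold change of 1.27 ± 0.0657 (SE) and an adjusted p of 3.3e-05 by the quasi-likelihood test of edgeR, adjusted over 17479 genes by the Benjamini-Hochberg method. In that comparison 6.76% of all tested genes were called at an adjusted p under 0.05. CD38 ranked 450 from the top by fold change.

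Corin alone raised CD38 1.67-fold in SKNO-1, to 383 ± 4.40 CPM (SD, n = 2), with a log2 fold change of 0.74 ± 0.0651 (SE) and an edgeR adjusted p of 0.00012. Here 37.9% of tested genes were called. On log2(TPM + 1), a scale that corrects for transcript length, the difference was 0.45 and was not called by limma (adjusted p 0.153). With transcript length as an offset in edgeR it was 0.42 and was called (adjusted p 0.0007).

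With both agents, SKNO-1 held CD38 at 294 ± 3.54 CPM (SD, n = 2), 1.28-fold above DMSO by edgeR (adjusted p 0.00279, with 46.7% of genes called). That small rise was not called with the length offset, where the log2 difference of 0.36 became 0.10 (adjusted p 0.215). On log2(TPM + 1) limma gave -0.20 (adjusted p 0.438). The median of all genes was -0.15 on that scale and 0.05 in the main fit. The drop below ATRA alone was called in each of these settings. Against ATRA, the combination lowered CD38 by 1.88-fold, a log2 difference of -0.91 ± 0.0652 (SE) with an edgeR adjusted p of 3.65e-05, in a comparison that called 44.8% of genes. The difference was -1.12 with the length offset and -1.38 on the TPM scale, where the median of all genes was -0.15. Against Corin alone, CD38 was 1.30-fold lower (log2 -0.38, edgeR adjusted p 0.0104, 10.4% of genes called), but without any 1 of the 4 libraries compared the adjusted p rose to between 0.0821 and 0.121.

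If the folds of the single agents had multiplied, SKNO-1 with both would have held 923 CPM of CD38, against the 294 CPM measured. This gap on the log2 scale was -1.65 ± 0.0922 (SE), a 3.14-fold shortfall with an edgeR adjusted p of 0.000658. Only 0.463% of tested genes, 81 of 17479, were called in that contrast. CD38 stood near the bottom of the order, at 17283 of 17479 from the top. Without SKNO-1 DMSO replicate 1 the gap was -1.52, without replicate 2 it was -1.69, and it was called in every alternative run.

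**Figure D1:**
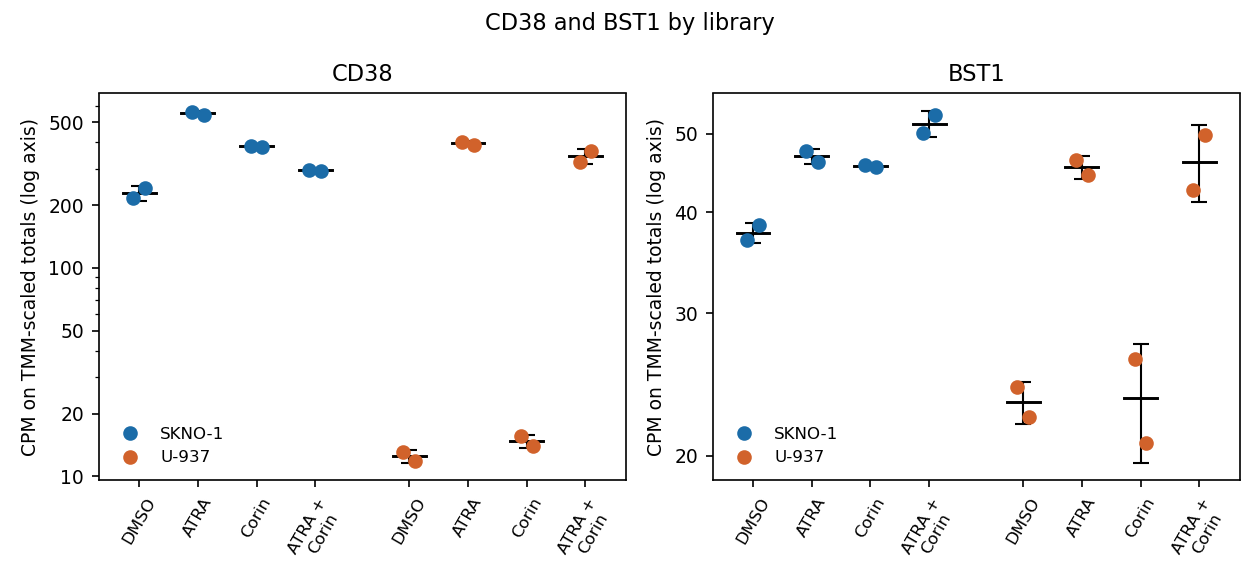
CD38 and BST1 in CPM by cell line and treatment; each point is 1 library, the long bar marks the mean of 2, whiskers show the SD, and both axes are logarithmic. In SKNO-1 CD38 is highest with ATRA at 553 CPM and falls to 294 CPM with both agents, whereas in U-937 it climbs from 12.5 CPM in DMSO to 397 CPM with ATRA and stays at 344 CPM with both.

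U-937 started low and moved much further. CD38 read 13.2 and 11.9 CPM in the DMSO libraries of U-937, 403 and 391 with ATRA, 15.5 and 14.0 with Corin, and 323 and 365 with both agents. Both groups with ATRA lay far above both groups without it. ATRA raised CD38 31.7-fold (95% interval 26.6 to 37.8), from 12.5 ± 0.903 to 397 ± 8.50 CPM (SD, n = 2), a log2 fold change of 4.99 ± 0.122 (SE) with an edgeR adjusted p of 2.65e-19. ATRA called 41.8% of 17717 tested genes in U-937, and CD38 ranked 109 from the top by fold change. The lowest values rest on 350 and 420 counts, so the DMSO level was measured well above the counting floor.

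Corin alone gave no called change of CD38 in U-937: the level was 14.8 ± 1.06 CPM (SD, n = 2), the log2 difference 0.24 with a 95% interval of 0.00 to 0.48, and the edgeR adjusted p 0.195, while 12.9% of genes were called. ATRA plus Corin raised it 27.5-fold over DMSO to 344 ± 29.7 CPM (SD, n = 2; log2 4.78, edgeR adjusted p 1.22e-19, 65.3% of genes called). Against ATRA alone the combination differed by -0.21 on the log2 scale, with an interval of -0.41 to 0.00 and an edgeR adjusted p of 0.0942, while 47.4% of genes were called. This last comparison sat at the edge of the threshold. It was called with library totals in place of TMM (-0.26, adjusted p 0.0107) and with only the libraries compared in the fit (-0.23, adjusted p 0.0383). It was also called on log2(TPM + 1) by limma (-0.44, adjusted p 0.0102), where the median of all genes was -0.13, and without replicate 2 of the combination (-0.30). It was not called with RLE size factors (-0.19), no low-count filter (-0.22), DESeq2 (-0.19), a replicate block (-0.20) or the length offset (-0.21). Nor was it called without replicate 1 of the combination (-0.11) or without either ATRA library (-0.19 and -0.22).

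The gap from multiplied folds in U-937 was -0.45 ± 0.154 (SE; edgeR adjusted p 0.0366, 23.4% of genes called), with 344 CPM measured against 469 expected. It was lost with the length offset (-0.29, adjusted p 0.259) and without each of 6 of the 8 libraries in turn. Whether this gap differed from the one in SKNO-1 was not tested.

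Between the lines, the one with less CD38 in DMSO had the larger response to ATRA and to the combination. In DMSO, U-937 held CD38 19.98-fold below SKNO-1 (log2 -4.32 ± 0.109 SE, edgeR adjusted p 9.22e-17, with 64.8% of 19872 genes called between the lines). The ATRA response was larger in U-937 by 3.76 ± 0.139 on the log2 scale (SE; edgeR adjusted p 3.53e-12, 19.4% of genes called), and the response to both agents by 4.47 ± 0.140 (SE; adjusted p 7.11e-14, 40.6% called). Because CPM were scaled within each line, levels in the lines are not on a common scale. Levels after treatment were not tested between the lines. After ATRA the U-937 libraries read 403 and 391 CPM, and the SKNO-1 libraries 562 and 543. With both agents the U-937 libraries read 323 and 365 CPM, and the SKNO-1 libraries 296 and 291. Set directly against ATRA, Corin gave less CD38 in SKNO-1 (log2 -0.53, edgeR adjusted p 0.000446, 42.0% of genes called) and in U-937 (-4.74, adjusted p 5.84e-19, 40.1% called), and in U-937 the combination lay 23.2-fold above Corin (adjusted p 3.82e-19, 60.5% called). The Corin response was smaller in U-937 by 0.50 on the log2 scale (-0.50 ± 0.141 SE, edgeR adjusted p 0.0248, 12.8% called), but this was lost with the length offset (-0.33, adjusted p 0.154) and without each of 4 single libraries.

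BST1 moved in the same direction as CD38 with ATRA but over a much narrower range. In SKNO-1 its DMSO libraries read 36.9 and 38.5 CPM, against 47.6 and 46.2 for ATRA, 45.7 and 45.5 for Corin, and 50.1 and 52.8 for both agents. All 6 treated libraries lay above both DMSO libraries, and the combination lay above each single agent. For how many of all genes this holds was not counted. BST1 was 1.24-fold above DMSO with ATRA (log2 0.31 ± 0.0673 SE, edgeR adjusted p 0.0298), 1.21-fold with Corin (0.27 ± 0.0674 SE, adjusted p 0.0144) and 1.36-fold with both (0.45 ± 0.0674 SE, adjusted p 0.00117).

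These BST1 rises were near the limit of what 2 libraries can show. The ATRA rise was not called by DESeq2 (adjusted p 0.0611) or in most other settings, with differences of 0.24 to 0.31. The Corin rise was lost with only the libraries compared (adjusted p 0.0933) and without either Corin library. The combined rise was lost on log2(TPM + 1), where limma gave 0.06 (adjusted p 0.844). Against ATRA alone the combination differed by 0.13 (interval -0.02 to 0.29, edgeR adjusted p 0.146), and the gap from multiplied folds, -0.14 (interval -0.36 to 0.08), was not called either (adjusted p 0.491). The interval of BST1 did not reach the -0.91 of CD38. On log2(TPM + 1) the BST1 difference was -0.21 and was not called by limma, with a median of all genes of -0.15. Whether the genes differed from each other was not tested.

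In U-937, the BST1 values were 24.3 and 22.3 CPM for DMSO, 46.5 and 44.4 for ATRA, 26.4 and 20.8 for Corin, and 42.6 and 49.8 for both agents. As for CD38, the libraries with ATRA stood apart from those without, and the share of all genes that do so was not counted. The BST1 values with Corin spanned those in DMSO. ATRA raised BST1 1.95-fold (95% interval 1.64 to 2.31; log2 0.96 ± 0.119 SE, edgeR adjusted p 5.94e-07), and both agents raised it 1.98-fold (log2 0.99, adjusted p 1.26e-07). Corin alone differed from DMSO by 0.02 on the log2 scale, with an interval of -0.23 to 0.27. The combination differed from ATRA alone by 0.02 (edgeR adjusted p 0.891), and 46.2 CPM were measured where multiplied folds gave 46.0.

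BST1 in DMSO was 1.77-fold lower in U-937 than in SKNO-1 (log2 -0.82 ± 0.113 SE, edgeR adjusted p 3.17e-06), though on log2(TPM + 1) the difference was -0.25 and was not called by limma (adjusted p 0.227). Its ATRA response was larger in U-937 by 0.69 ± 0.157 (log2, SE; edgeR adjusted p 0.00366), and its response to both agents by 0.58 ± 0.157 (SE; adjusted p 0.00547). Neither was called on the TPM scale (0.39, adjusted p 0.31, and 0.47, adjusted p 0.144). The Corin responses of BST1 in the lines differed by -0.26, which was not called (adjusted p 0.333).

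**Figure D2:**
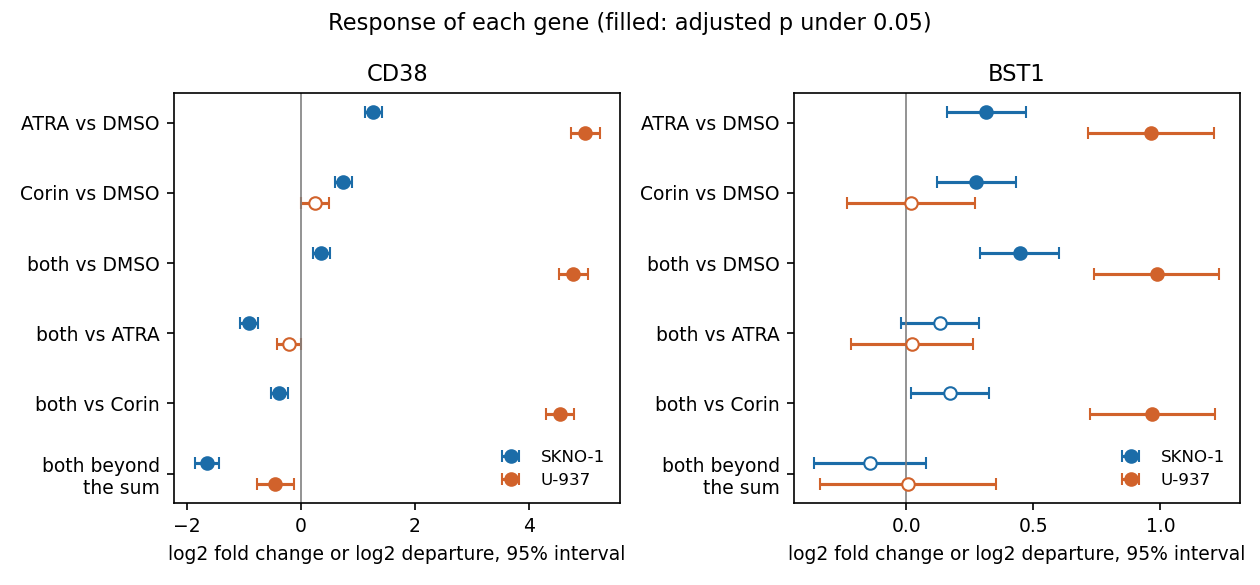
Log2 fold changes of CD38 and BST1 in each comparison, by cell line, from edgeR; bars are 95% intervals, filled points have an adjusted p under 0.05, the vertical line marks no change, and the bottom line of each panel is the gap from multiplied folds. CD38 in U-937 sits near 5 for ATRA, CD38 in SKNO-1 falls to -0.91 for the combination against ATRA, and no BST1 value exceeds 0.99.

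Levels of the paralogs can be set side by side only per length. In TPM the ratio of CD38 to BST1 was 2.59 and 2.41 in the SKNO-1 DMSO libraries, 4.63 and 4.80 after ATRA, 2.66 and 2.85 after Corin, and 2.18 and 1.96 after both. In U-937 it was 0.170 and 0.165 in DMSO, 2.80 and 2.80 after ATRA, 0.170 and 0.186 after Corin, and 2.23 and 2.28 after both. BST1 was thus the more abundant cyclase transcript in U-937 without ATRA, and CD38 in every other group. Ranked by mean TPM among 19975 protein-coding genes, CD38 moved from place 9296 in U-937 with DMSO to 866 with ATRA. BST1 moved from 4777 to 2765 there, and in SKNO-1 both stayed within the first 3693.

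The mean transcript length that RSEM assigned to CD38 was greater with Corin, but in U-937 only with Corin alone. In SKNO-1 it was 3413 and 3819 bases in DMSO and 3849 and 3714 with ATRA, against 4573 and 4571 with Corin and 4203 and 4508 with both. In U-937 the libraries with Corin alone, at 4520 and 4640 bases, lay above the other 6, at 3951 to 4176. Those with both agents were at 4150 and 3951, against 4176 and 4003 in DMSO. A greater mean length puts more weight on the long transcript of 5620 bases and less on shorter ones, which include 2 with retained introns (594 and 1672 bases). By construction it also lowers TPM relative to CPM. For BST1 the mean length separated the lines, at 1511 to 1668 bases in SKNO-1 and 1292 to 1386 in U-937. Within U-937 the libraries with both agents were the lowest, at 1292 and 1296. RSEM's split of reads between transcripts is a model estimate, and the cause of these differences was not tested. The lengths themselves were not tested either. The share of all genes whose mean length separates by Corin or by line was not counted.

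**Figure D3:**
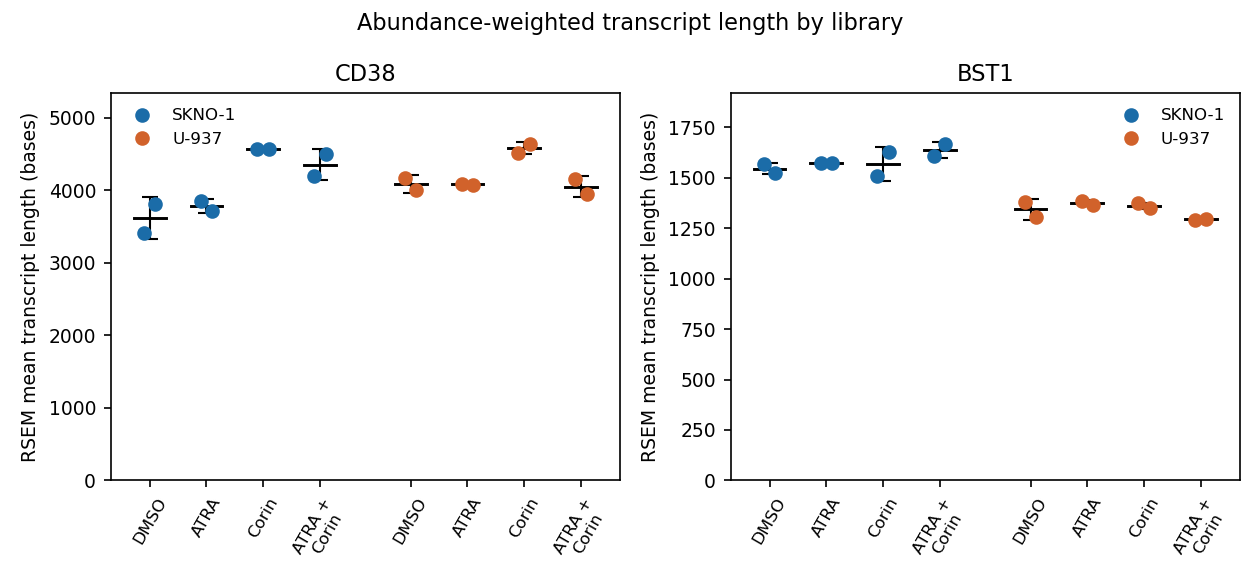
Mean transcript length in bases that RSEM assigned to CD38 and BST1, by cell line and treatment, with 1 point per library. The 4 SKNO-1 libraries with Corin lie at 4203 bases or more for CD38 and the 4 without it at 3849 or fewer, whereas BST1 separates by line.

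The other genes that make, use or answer to NAD and its cyclase products were taken as a list of 41 genes. In SKNO-1, 32 were tested: ATRA raised 0 and lowered 2, Corin raised 8 and lowered 4, and the combination raised 12 and lowered 8. The ATRA count rested on the DMSO libraries: without DMSO replicate 1 it was 5 higher and 5 lower, and without DMSO replicate 2 it was 1 higher and 8 lower. The median log2 change with both was 0.26 in the list and 0.05 over all genes. In U-937, 31 were tested: ATRA raised 12 and lowered 8, Corin raised 11 and lowered 2, and the combination raised 17 and lowered 11, with a median of 0.73 against 0.03. Of all genes tested in SKNO-1, ATRA raised 2.96% and lowered 3.79%, Corin raised 20.5% and lowered 17.3%, and the combination raised 24.7% and lowered 22.0%. In U-937 the same shares were 21.7% and 20.1% for ATRA, 8.55% and 4.40% for Corin, and 33.1% and 32.2% for the combination.

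Among the enzymes that supply NAD, the main salvage enzyme NAMPT fell in U-937 with ATRA, from 156 ± 16.4 to 65.5 ± 2.05 CPM (SD, n = 2; log2 -1.25, edgeR adjusted p 8.17e-10). NMNAT3, a mitochondrial NMN adenylyltransferase, fell there too (-1.60, adjusted p 3.26e-09), whereas NMRK1, the nicotinamide riboside kinase, rose with both agents (2.09, adjusted p 5.57e-12). In the kynurenine route, which builds NAD from tryptophan, 4 of 5 tested genes rose with ATRA in U-937, where 21.7% of all genes did, and 0 of 4 in SKNO-1, where 2.96% did. KMO, the kynurenine hydroxylase of that route, went from 0.506 ± 0.0517 CPM in U-937 with DMSO to 4.03 ± 0.396 with ATRA and 12.2 ± 0.254 with both (SD, n = 2; log2 4.59 for both, edgeR adjusted p 8.86e-14).

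The kinases that turn NAD into NADP parted in U-937. Cytosolic NADK rose with ATRA (log2 1.05, edgeR adjusted p 1.14e-08) and mitochondrial NADK2 fell with ATRA (-1.12, adjusted p 4.38e-08) and further with both (-2.43, adjusted p 3.24e-14). NADK2 also fell with both in SKNO-1 (-1.01, adjusted p 0.000333). Of the other NAD consumers, the poly-ADP-ribose polymerase PARP1 fell with both agents in each line, by 0.37 in SKNO-1 and by 1.57 in U-937 on the log2 scale (edgeR adjusted p 0.00197 and 6.08e-12). SARM1, an NAD hydrolase of another family, rose with Corin (0.97) and with both (0.87) in U-937.

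Of the calcium channels and binding proteins on which the cyclase products act, the combination raised 3 and lowered 3 of 7 tested in SKNO-1. Of all genes it raised 24.7% and lowered 22.0% there. In U-937 it raised 1 and lowered 4 of 6, where it raised 33.1% and lowered 32.2% of all genes. ATRA alone also raised 1 and lowered 4 there, against 21.7% and 20.1% of all genes. Corin alone raised 3 and lowered 1, against 8.55% and 4.40%. TPCN1, an endolysosomal channel, rose under the combination, by 1.46 on the log2 scale in SKNO-1 (edgeR adjusted p 3.6e-05) and by 1.68 in U-937 (adjusted p 2.33e-08). TRPM2, the ADP-ribose-gated channel, fell under it, by 0.62 in SKNO-1 (adjusted p 0.0317) and by 1.13 in U-937 (adjusted p 1.24e-08). In U-937 the ryanodine receptor gene RYR2 fell as well (-2.19, adjusted p 2.25e-11).

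Of the genes that act on extracellular nucleotides and adenosine, the combination raised 5 of 7 tested in SKNO-1, where it raised 24.7% of all genes, and 4 of 4 in U-937, where it raised 33.1%. It lowered 0 of them in either line. With ATRA alone 2 of 7 fell in SKNO-1. ENTPD1 (CD39), which hydrolyses ATP and ADP, read 13.4 and 14.1 CPM in the SKNO-1 DMSO libraries, 5.37 and 4.94 after ATRA, 34.6 and 32.6 after Corin, and 22.2 and 19.98 after both. ENTPD1 thus fell with ATRA (log2 -1.42, edgeR adjusted p 0.000168) where CD38 rose, and rose with Corin (1.29, adjusted p 6.84e-05). In U-937 it rose with ATRA (1.87, adjusted p 4.14e-12), Corin (0.87) and both (2.52). DPP4, a peptidase that binds adenosine deaminase, also fell with ATRA in SKNO-1 (-0.70, adjusted p 0.00499) and rose with Corin (0.91, adjusted p 0.000373), and it had 0 counts in every U-937 library.

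PECAM1 (CD31), the described binding partner of CD38 on other cells, rose with Corin in both lines. In SKNO-1 it went from 7.58 ± 0.862 CPM in DMSO to 22.9 ± 0.445 with Corin (SD, n = 2; log2 1.59, edgeR adjusted p 4.84e-05), while ATRA left it at 7.56 ± 0.216. In U-937 it went from 61.0 ± 3.89 CPM to 116 ± 2.85 with ATRA, 169 ± 8.62 with Corin and 285 ± 27.6 with both (SD, n = 2; log2 2.22 for both, adjusted p 6.15e-15).

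**Figure D4:**
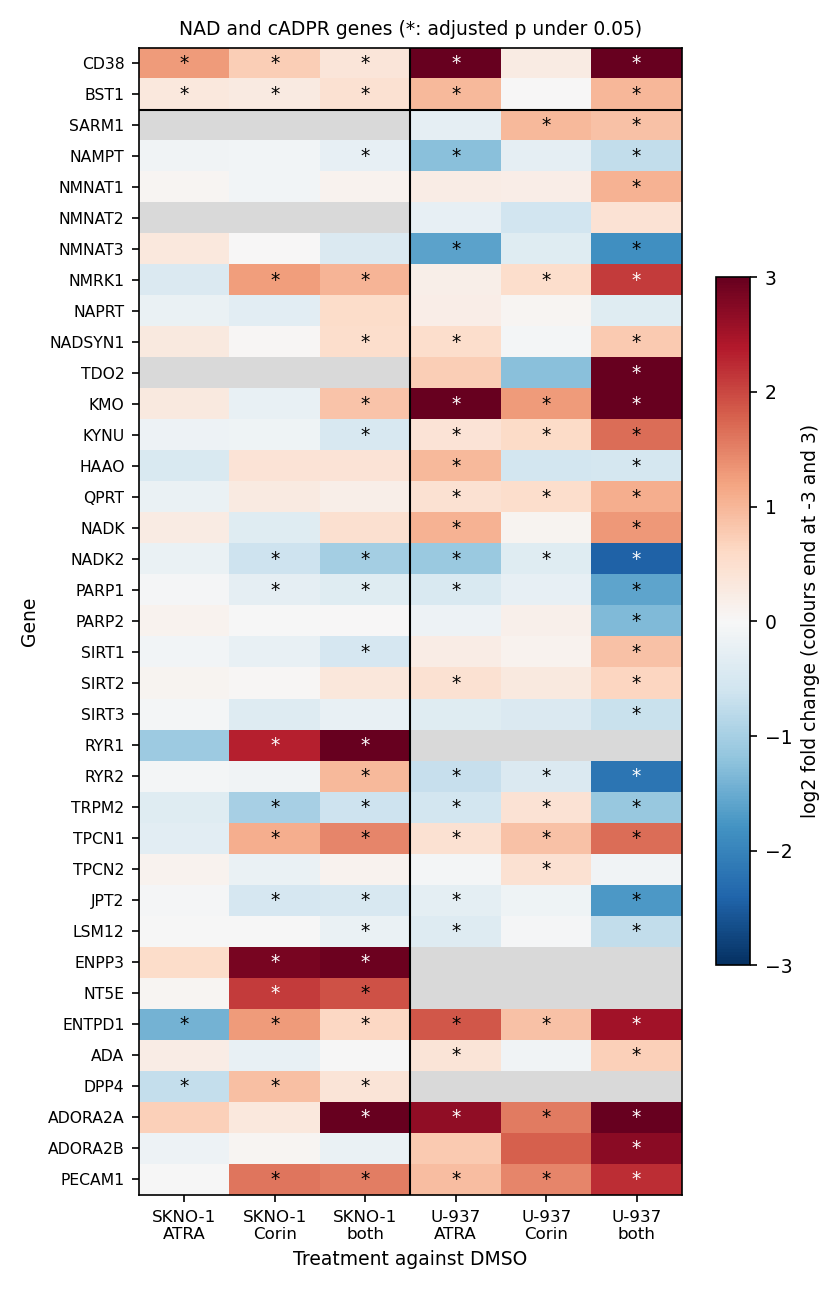
Log2 fold changes against DMSO of 35 genes of NAD and cyclic ADP-ribose metabolism and of CD38 and BST1, by line and treatment, on a colour scale that ends at 3 in either direction; asterisks mark edgeR adjusted p under 0.05. With both agents, 5 of 7 tested extracellular genes rise in SKNO-1, where 24.7% of all genes do. In U-937 4 of 4 rise, where 33.1% of all genes do. Of the 6 calcium targets tested in U-937 the combination lowers 4, where it lowers 32.2% of all genes.

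CD38 is also a plasma cell marker, so markers of other cell types were read beside it. The 6 markers (CD3E, SDC1, TNFRSF17, EPCAM, COL1A1 and HBB) summed to 0.474 to 0.839 CPM in SKNO-1 with DMSO, 2.78 to 3.21 after ATRA, 2.39 to 2.497 after Corin and 7.51 to 8.19 after both. In U-937 the sums were 0.0679 to 0.0939 CPM for DMSO, 0.0827 to 0.0911 for ATRA, 0.559 to 0.849 for Corin and 0.412 to 0.769 for both. TNFRSF17, the other plasma cell marker, had 0 counts in all SKNO-1 groups, as did CD3E and HBB, and the SKNO-1 sums were nearly all SDC1. TNFRSF17 and CD3E had counts in U-937 with ATRA only, where all 6 markers summed to at most 0.0911 CPM. In U-937, COL1A1, a stromal marker, was called higher with Corin (log2 3.04, edgeR adjusted p 0.00345) and with both (2.78, adjusted p 0.00132), from 5 counts over both DMSO libraries to 47 and 37. In SKNO-1, SDC1 was called higher by edgeR with ATRA (log2 2.19), Corin (1.86) and both agents (3.56). CD38 rose there with each of these treatments as well. SDC1 was highest with both agents, where CD38 was below its level with either agent alone. The part of these markers in the result was not tested.

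The genes closest to CD38 in pattern were named by a fixed measure, the root-mean-square difference over the 8 libraries of a line on log2(CPM + 1) centred on each gene's mean. In SKNO-1 they were RHOBTB1 (0.222), CLK1 (0.270) and DAPP1 (0.272), among 11444 protein-coding genes. RHOBTB1 was at 21.1 CPM in DMSO, 41.4 after ATRA, 24.9 after Corin and 27.2 after both. In U-937 they were HIC1 (0.205), the retinoic acid receptor gene RARB (0.231) and CYP4F3 (0.259). HIC1, a transcriptional repressor gene, was at 0.0666 CPM in DMSO, 21.9 after ATRA, 0.119 after Corin and 22.0 after both.

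The paralogs were 0.418 apart in SKNO-1 and 1.87 apart in U-937. Counted from CD38, BST1 ranked 520 of 11444 genes in SKNO-1 and 783 of 11485 in U-937; counted from BST1, CD38 ranked 9187 and 11435. The genes closest to BST1 were RRAGD (0.0450), GVQW3 (0.0451) and MR1 (0.0454) in SKNO-1, and ARPC4 (0.0694), CD63 (0.0810) and MSRB2 (0.0813) in U-937. The measure depends on the pseudocount for genes with low values: with 0.1 in place of 1 CPM, RHOBTB1 alone of the 3 SKNO-1 genes and 0 of the 3 U-937 genes stayed closest to CD38.

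The authors' deposited tables of their own DESeq2 comparisons gave similar sizes. For CD38 in SKNO-1 the authors' deposited table had a log2 fold change of 1.26 with ATRA, 0.71 with Corin and 0.29 with both, the last with an adjusted p of 0.159. In U-937 the authors' deposited table had 4.98, 0.24 and 4.76. For BST1 in SKNO-1 the authors' deposited table had 0.30, 0.24 and 0.38, with adjusted p-values of 0.614, 0.279 and 0.0758, so those 3 rises and the CD38 rise with both agents, called here, were not called there.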

How the data were processed

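Per the submitters' processing notes, the tools were Trimmomatic, STAR, RSEM, deepTools and DESeq2 on hg38, with no versions or roles. The authors deposited estimated counts, TPM and effective transcript lengths per gene and library, and tables of log2 fold changes with adjusted p-values, per the file headers. The strand setting is not given in the sources used here, and the deposited names mark single-end reads where the labels name paired-end reads. Of the positive counts 20.4% were not whole (3 of 16 for CD38, 0 for BST1).

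Counts were rounded (largest change of a library total 42.03) and tested with edgeR 4.0.16 in R 4.3.3: filterByExpr, TMM, robust quasi-likelihood fit, 8 libraries per line (4 residual degrees of freedom), Benjamini-Hochberg threshold 0.05. Lines were compared in a fit of 16 libraries. An exact permutation test of 2 against 2 cannot go below p = 0.333. Alternatives were DESeq2 1.42.0, other scalings, no low-count filter, a replicate block, only the libraries compared and leaving out each library; the length offset and limma 3.58.1 on log2(TPM + 1) were chosen after seeing the data.

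CD38, BST1 and the gene lists were chosen with earlier results of these data known. Named genes are these, list genes, and the 3 protein-coding genes per line closest in pattern (mean of at least 1 CPM). The table has 0 spike-in entries, so RNA per cell was not measured. 1 marker of other cell types is not reported here.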

Additional observations from a re-analysis of the deposited data

Results flagged for a closer look

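Responses that differed between the lines, each tested directly as an interaction in edgeR over all 16 libraries, are listed here as U-937 minus SKNO-1 on the log2 scale. For CD38 the difference was 3.76 with ATRA (adjusted p 3.53e-12), -0.498 with Corin (adjusted p 0.0248) and 4.47 with both agents (adjusted p 7.11e-14). The CD38 difference with Corin was lost with the length offset, on log2(TPM + 1) and without each of 4 single libraries. For BST1 the difference was 0.689 with ATRA (adjusted p 0.00366) and 0.584 with both agents (adjusted p 0.00547). Neither BST1 difference was called on log2(TPM + 1). In every library of either line, CD38 with ATRA lay above CD38 in DMSO, so the lines differed in the size and not in the direction of that response. Cell line and the GM-CSF in the SKNO-1 medium cannot be told apart.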

How the results depend on the processing

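All values are log2 differences unless they are counts of pathway genes. In every alternative run, CD38 kept its ATRA rise in both lines and, in SKNO-1, its fall from ATRA to the combination and its gap from multiplied folds (leave-one-out -1.69 to -1.52). The BST1 rise with ATRA in SKNO-1 was not called with RLE factors (0.28), library totals (0.30), no low-count filter (0.27) or DESeq2 (0.28). It was also not called with only the libraries compared (0.30), the length offset (0.30) or limma on log2(TPM + 1) (0.27). Without either ATRA library it was 0.25 and 0.29 and not called. Without DMSO replicate 1 it was 0.24 and without DMSO replicate 2 it was 0.30, and it was called in both fits. BST1 with Corin in SKNO-1 was lost with only the libraries compared (0.28), on TPM (0.30) and in some leave-one-out fits (0.22 to 0.29). BST1 Corin minus ATRA in SKNO-1 turned to 0.022 (totals), 0.0012 (only the libraries compared) and 0.031 (TPM), with -0.047 to 0.0025 leaving out libraries.

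With only the libraries compared, BST1 gained a call in SKNO-1 for both agents against ATRA (0.14) and Corin (0.18), and so did CD38 in U-937 for both against ATRA (-0.23; -0.26 with totals, -0.44 on TPM, leave-one-out -0.30 to -0.11). CD38 both minus Corin in SKNO-1 was lost on TPM (-0.65) and in each leave-one-out fit (-0.40 to -0.37). The CD38 gap in U-937 was lost with RLE (-0.42), the length offset (-0.29), TPM (-0.48) and in 6 leave-one-out fits (-0.54 to -0.35). The CD38 difference between lines with Corin was lost with the length offset (-0.33), on TPM (-0.41) and in 4 leave-one-out fits (-0.56 to -0.40). CD38 both minus DMSO in SKNO-1 was lost with the offset (0.10).

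On TPM alone, calls were lost for CD38 with Corin (0.45) and BST1 with both (0.062) in SKNO-1, for BST1 between the lines in DMSO (-0.25) and for its line differences with ATRA (0.39) and both (0.47). Signs turned in SKNO-1 for CD38 with both (-0.20) and for BST1 both minus ATRA (-0.21) and both minus Corin (-0.24). In U-937, values near 0 turned for BST1 with Corin (-0.00022 with the offset, -0.036 on TPM, leave-one-out -0.17 to 0.18), both minus ATRA (-0.033 with totals, -0.13 on TPM, leave-one-out -0.091 to 0.14) and the gap (-0.053 with totals, -0.016 unfiltered, -0.094 on TPM, leave-one-out -0.16 to 0.19). On TPM the median of all genes in SKNO-1 was -0.15 for both agents against DMSO, -0.15 against ATRA and -0.22 against Corin. For both agents against DMSO this median had moved from the main fit by -0.20 in SKNO-1 and by -0.28 in U-937. With library totals it had moved by -0.12 in U-937. The cause was not tested.

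Pathway genes called in SKNO-1 with ATRA were 2, and 1 with only the libraries compared or on TPM (leave-one-out 1 to 10; 10 without DMSO replicate 1, 9 without DMSO replicate 2). With both agents they were 20, and 12 with only the libraries compared and 10 on TPM (5 higher, 5 lower; leave-one-out 11 to 23, with 11 without replicate 2 of the combination). In U-937 they were 13 with Corin and 4 on TPM (leave-one-out 6 to 9), and with ATRA 12 higher and 8 lower became 6 and 9 on TPM. Same-numbered libraries did not deviate together (correlations of -0.496 to 0.226 in SKNO-1 and -0.461 to 0.421 in U-937), so the numbers were not taken as pairs. A replicate block left BST1 with ATRA in SKNO-1 at 0.31 (adjusted p 0.0716) and the CD38 gap in U-937 at -0.45 (adjusted p 0.0541), neither called, and changed no other call of CD38 or BST1.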

Other observations

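Genes beside BST1 and CD38 on chromosome 4 were read from a list of 10. FBXL5, an iron-sensing F-box protein gene, lies at 15604381 to 15681679 (GENCODE release 44, GRCh38), before BST1. In SKNO-1 it rose with ATRA (log2 0.34), Corin (0.26) and both agents (0.61), from 72.6 ± 4.99 CPM in DMSO to 111 ± 0.212 with both (SD, n = 2; edgeR adjusted p 0.000235 for both). In U-937 FBXL5 rose with ATRA (0.29) and both (0.86, adjusted p 6.24e-08). FAM200B, which starts at 15681662, was raised in U-937 by ATRA (1.03, adjusted p 3.95e-07) and by the combination in U-937 (1.60) and SKNO-1 (0.94). On the far side of CD38, FGFBP1, FGFBP2 and PROM1 were too low to test in either line, and of the comparisons with DMSO, TAPT1 was called in 1, Corin in U-937 (-0.40, adjusted p 0.0152). Of the tested neighbours, 3 of 4 rose with ATRA in U-937, where 21.7% of all genes did, and 1 of 5 in SKNO-1, where 2.96% did.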
